A study of Mus musculus with 6 samples.

Results

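Rab GTPases are small switch proteins that mark the membranes of a cell. In the GTP-bound form a Rab sits on its own organelle and recruits tethers, motors and other effectors, and in the GDP-bound form it is drawn back into the cytosol. In macrophages they direct the formation of phagosomes, the recycling of surface receptors, delivery to lysosomes and the release of secreted proteins. The members described here are the rows of the deposited gene table whose name is Rab followed by a number and at most a letter and a digit, which leaves out genes that only interact with Rabs. There are 59 such rows among 34745 genes.

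Expression was measured by RNA-seq of total RNA from RAW 264.7, a macrophage line of mouse origin. One group of 3 libraries came from cells given DMSO, the solvent, and the other group of 3 from cells given BPAP (bisphenol AP), a relative of bisphenol A. The series asks which genes respond in macrophages exposed to BPAP, and this is its one comparison. All libraries come from the same cell line, and the sources used here state neither dose nor exposure time. Whether the replicates were separate cultures is not said either, so that p-values reflect only how much these libraries vary, and that variation may be technical.

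Libraries held 11084705 to 13806559 counts, of which Rab genes took 0.309% to 0.346%. DMSO 1 and BPAP 2 stood somewhat apart from the others of their group: the chi-square per degree of freedom was 20.1 and 21.1 between DMSO 1 and the other DMSO libraries against 6.98 between those, and 19.2 and 18.3 between BPAP 2 and the other BPAP libraries against 8.73. DMSO 1 also had the highest share of mitochondrial transcripts, 10.8%, against 6.53% to 7.55% elsewhere. Of 10 macrophage markers 9 were tested, and Mertk was at 0 in all libraries. Their summed level was 4268 to 4860 CPM (TMM-scaled counts per 1000000) in DMSO and 5075 to 5555 CPM in BPAP, with 6 markers higher and 1 lower, and its part in the Rab results was not tested. The markers of fibroblasts, T cells, epithelial cells and neutrophils each summed to at most 0.916 CPM in any library. Of these, Pdgfra, Dcn, Lum, Cd3e, Cd8a, Epcam, Cdh1, Krt18, Sftpc, Ly6g and Mpo were at 0 throughout. In bulk RNA, fewer cells of a kind and less RNA per cell cannot be told apart.

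In BPAP-treated macrophages more Rab genes were higher than lower. Of the 40 members with enough counts to be tested, 13 rose and 1 fell, while 26 missed the threshold, an adjusted p of 0.05 from edgeR (quasi-likelihood). Those that rose were Rab20, Rab28, Rab11a, Rab43, Rab34, Rab29, Rab35, Rab32, Rab8a, Rab5c, Rab18, Rab3d and Rab23, and the one that fell was Rab7b. Sizes were modest, with a median of 0.48 for the absolute log2 fold change of these 14 genes, 3 rises of at least 1.5-fold and 0 changes of 2-fold. Among all 11711 genes tested, 31.7% were called, 16.2% higher and 15.5% lower, beside 35% called, 32.5% higher and 2.50% lower of the tested Rab genes. The median log2 fold change of the tested Rab genes was 0.24, against 0.02 for all tested genes. No test of the family against other genes was made. Values in BPAP lay wholly above those in DMSO for 19 Rab genes and wholly below for 1, where the shares over all tested genes are 25.2% and 23.8%, together 49%. The number that rose changed with the library left out: it was 7 without DMSO 1, 5 without DMSO 2, 9 without DMSO 3, 7 without BPAP 1, 10 without BPAP 2 and 8 without BPAP 3. The 14 called genes kept their direction in all 6 of these fits. Fewer libraries entered them, and the number of all genes higher also fell, from 1901 to between 1244 and 1654.

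**Figure D1:**
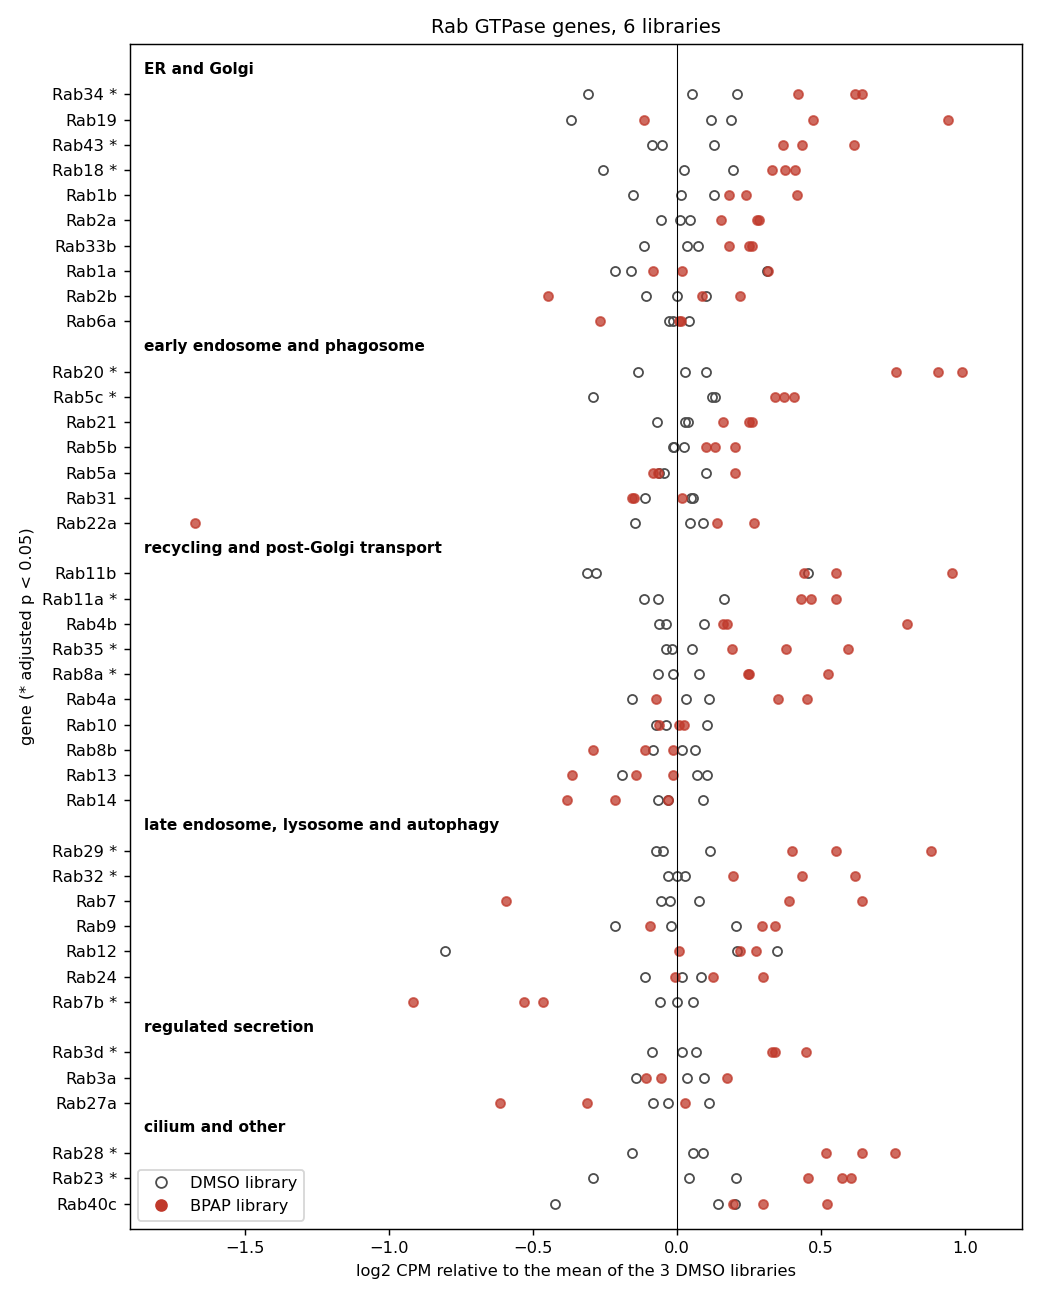
Each row is one of the 40 tested Rab genes, grouped by the organelle or route it is known for, and each point is 1 library; the x axis is its log2 CPM relative to the mean of the 3 DMSO libraries, and a star marks an adjusted p under 0.05. The BPAP points of Rab20 and Rab28 lie to the right of all DMSO points and those of Rab7b to the left, while Rab22a, Rab7 and Rab12 each have 1 library far from the others of its group.

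Gene length moved with the result. Across all tested genes the log2 fold change fell with the summed length of merged exons (Spearman rho = -0.40), and the tested Rab genes were shorter than most, with a median of 3526 bases against 4298. Among the 40 Rab genes the same rho was -0.26; genes are not independent replicates, so these are descriptions. After removal of the trend with exon length and GC content from each library, 8 Rab genes were higher and 1 lower, and the median was 0.12. In that fit 11.8% of all genes were higher and 10.9% lower. Rab20, Rab28, Rab11a, Rab43, Rab8a, Rab18 and Rab23 were higher in both fits and Rab7b lower in both. The other 6, Rab34, Rab29, Rab35, Rab32, Rab5c and Rab3d, did not pass with the trend removed, and Rab21 passed only there, and not without any 1 library. Left without 1 library as well, the corrected fit called 2 (without DMSO 2) to 7 (without BPAP 2) Rab genes higher. Rab28 and Rab7b passed in each of the fits made, with and without the correction and with each library left out.

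**Figure D2:**
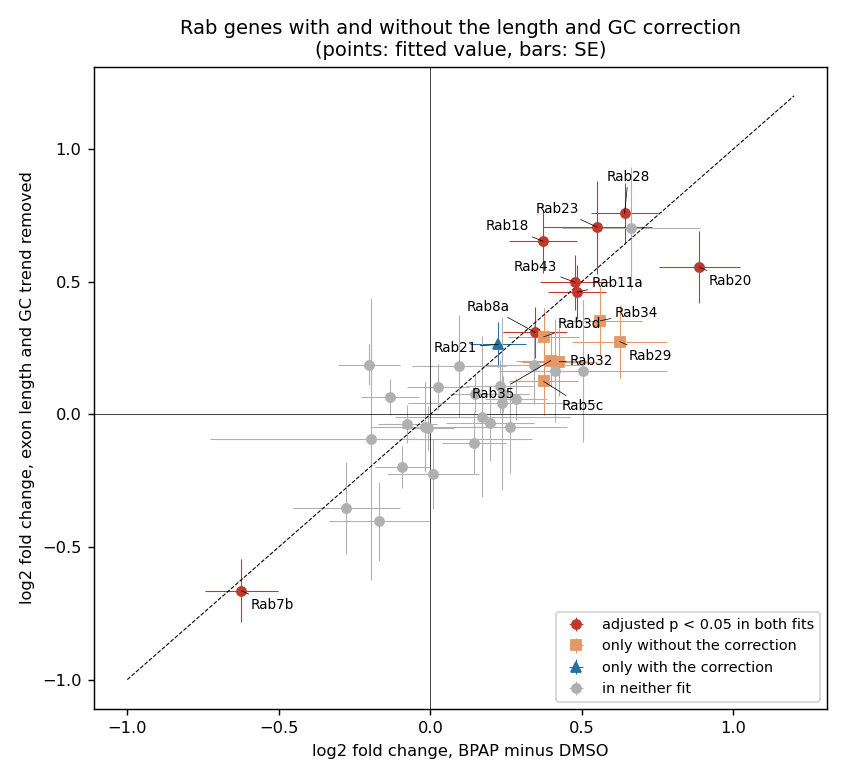
Log2 fold changes of the 40 tested Rab genes, BPAP minus DMSO, from the fit without correction (x axis) against the fit corrected for exon length and GC content (y axis); bars are SE and the dashed line marks equal values. Rab20, Rab29, Rab34 and Rab5c lie below the line, Rab18, Rab23 and Rab28 above it, and Rab7b close to it at -0.62 and -0.66.

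Of 7 tested Rabs of early endosomes and phagosomes 2 (28.6%) rose, and 1 of these, Rab20, had the largest rise of the family. Over all tested genes 16.2% were higher, and over the tested Rab genes 32.5%. In the fits without 1 library, 1 to 2 of these 7 were higher. No difference between Rabs grouped by organelle or route was tested. The median log2 fold change of the group was 0.15, beside 0.24 for all tested Rab genes. Rab20, which is found on endosomes and on maturing phagosomes, lies on chromosome 8 (11453392 to 11478638, GRCm38) and stood at 9.64, 8.61 and 10.1 CPM in DMSO 1 to 3 and at 16.0, 17.7 and 18.8 CPM in BPAP 1 to 3. Every BPAP library was above every DMSO library. The rise was 1.85-fold (log2 fold change 0.89, SE 0.13, adjusted p = 0.00159), and it passed in all 6 fits without 1 library. Rab20 is short, with 1392 exon bases, and corrected for length and GC it had a log2 fold change of 0.55 (adjusted p = 0.0182). Its corrected call was lost without DMSO 2 or BPAP 3. Rab5c, one of the 3 Rab5 genes, whose products set up early endosomes, stood at 254, 189 and 252 CPM in DMSO and 293, 300 and 307 CPM in BPAP. Its 1.30-fold rise (adjusted p = 0.0307) was lost without DMSO 2 and without each BPAP library (adjusted p up to 0.100), and its corrected log2 fold change was 0.12.

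The other members of this group did not pass in the uncorrected fit. Rab5a stood at 122, 124 and 137 CPM in DMSO and 122, 121 and 147 CPM in BPAP, with a log2 fold change of 0.02 (SE 0.10), and Rab5b had 0.15 (SE 0.08, adjusted p = 0.187). Rab21, an endosomal Rab that binds integrins, had 0.22 (adjusted p = 0.0863), and 0.26 with the trend removed (adjusted p = 0.0495). Rab31, which works between the Golgi and endosomes, had -0.09. Rab22a, another early endosomal Rab, stood at 93.5, 107 and 110 CPM in DMSO and at 114, 125 and 32.5 CPM in BPAP. BPAP 3 was far below all other libraries, and without it the log2 fold change turned from -0.20 to 0.20 (adjusted p = 0.196).

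Among Rabs of recycling and of transport from the Golgi to the surface, 3 of 10 tested (30%) rose and 7 did not pass. Over all tested genes 16.2% were higher. In the fits without 1 library, 1 to 3 of these 10 were higher. Rab11a, the Rab of the recycling endosome (chromosome 9, 64715299 to 64737758), stood at 128, 106 and 109 CPM in DMSO and 158, 168 and 154 CPM in BPAP. The groups did not overlap, and the rise of 1.40-fold (log2 fold change 0.48, SE 0.10, adjusted p = 0.00515) passed in all 6 fits without 1 library. Corrected for length and GC it had 0.46 (adjusted p = 0.0130), lost only without DMSO 2 (0.0562). Rab8a, which carries cargo from the Golgi and recycling compartments to the plasma membrane, stood at 53.1, 56.5 and 51.3 CPM in DMSO and 63.7, 77.1 and 63.6 CPM in BPAP, a rise of 1.27-fold (adjusted p = 0.0299). Rab35, of rapid recycling at the plasma membrane, rose 1.32-fold (adjusted p = 0.0245), the group means being 42.7 ± 1.38 in DMSO and 56.2 ± 7.87 CPM in BPAP (SD, n = 3 each). The call of Rab8a was lost without any 1 DMSO library or BPAP 2, and with limma on FPKM, and its corrected call (log2 fold change 0.31, adjusted p = 0.0463) was lost without any 1 library. That of Rab35 held without BPAP 3 and was lost on leaving out any other library (adjusted p up to 0.0819), and corrected it had 0.20 (adjusted p = 0.171).

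Rab11b, the close relative of Rab11a, had the largest log2 fold change among members that did not pass, 0.66 (SE 0.23, adjusted p = 0.0580). Its values were 18.9, 18.5 and 31.6 CPM in DMSO and 33.8, 44.6 and 31.2 CPM in BPAP, so that DMSO 3 lay within the BPAP range. Without DMSO 3 it passed with 0.96 (adjusted p = 0.00763), and with all libraries it passed in limma-voom (0.0477) and DESeq2 (0.0117). It did not pass on leaving out any other library (adjusted p = 0.0655 to 0.192) or with the length and GC correction (0.0654). Nor did it pass with the other scalings, without a filter (0.125), with the replicate block (0.112) or with limma on FPKM (0.0591). Rab4b had 0.41 (adjusted p = 0.0892), with BPAP 1 at 47.1 CPM and the other BPAP libraries at 30.2 and 30.5 CPM. Rab4a had 0.26, Rab10 -0.01, Rab8b -0.13 and Rab13 -0.17. Rab14, which moves cargo between endosomes and the Golgi and has the longest exons of all tested members (13589 bases), had -0.20 (adjusted p = 0.152), and 0.19 with the trend removed (adjusted p = 0.114).

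In the group of late endosomes, lysosomes and autophagy, the genes moved both ways. Of 7 tested, 2 (28.6%) were higher and 1 (14.3%) lower, beside 16.2% and 15.5% of all tested genes. In the fits without 1 library, 0 to 3 were higher and 1 lower. Rab7b, which acts in transport between late endosomes and the trans-Golgi network and is known in macrophages for routing Toll-like receptors to degradation, lies on chromosome 1 (131688695 to 131715439). It stood at 79.9, 86.5 and 83.2 CPM in DMSO and at 57.6, 44.1 and 60.2 CPM in BPAP, with no overlap. Its level was 1.54-fold lower, a log2 fold change of -0.62 with an SE of 0.12 (adjusted p = 0.00442). Rab29, a Rab of the Golgi and lysosomes that recruits the kinase LRRK2, rose 1.54-fold, with means of 9.76 ± 0.70 CPM in DMSO and 15.1 ± 2.63 CPM in BPAP (SD, n = 3 each, adjusted p = 0.0138), a call lost without DMSO 1 (0.0548). Rab32, of lysosome-related organelles and mitochondria, rose 1.34-fold (adjusted p = 0.0254), from 24.3 ± 0.51 to 32.6 ± 4.74 CPM. Its call held without BPAP 2 and was lost on leaving out any other library (adjusted p up to 0.0966). Corrected for length and GC, Rab29 and Rab32 had log2 fold changes of 0.27 and 0.20 and did not pass (adjusted p = 0.177 and 0.289).

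Rab7, the general Rab of late endosomes and of fusion with lysosomes, could not be placed. It stood at 217, 222 and 238 CPM in DMSO and at 296, 150 and 352 CPM in BPAP. BPAP 2 was below all DMSO libraries and the other BPAP libraries were above all of them. The log2 fold change was 0.24 (SE 0.31, adjusted p = 0.599), and without BPAP 2 it was 0.52 (adjusted p = 0.00331). Rab12, which directs cargo from recycling endosomes to lysosomes, had 75.9, 34.2 and 69.0 CPM in DMSO and 69.5, 72.2 and 60.0 CPM in BPAP, with DMSO 2 the lowest of all, and without that library its log2 fold change turned from 0.17 to -0.11. Rab9, of transport from late endosomes to the Golgi, had 0.20. Rab24, linked to autophagy, had 0.14, but shares 1258 exon bases with Prelid1 on the opposite strand, which had 6813 counts on average against 810, and no strand setting is stated.

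Of 10 tested Rabs of the endoplasmic reticulum and Golgi, 3 (30%) rose and 7 did not pass. Over all tested genes 16.2% were higher. In the fits without 1 library, 1 to 4 of these 10 were higher. Rab43, of the Golgi, stood at 24.9, 21.4 and 22.0 CPM in DMSO and 30.8, 34.9 and 29.4 CPM in BPAP, 1.39-fold higher (adjusted p = 0.0117), a call lost without DMSO 2 (0.0513). Corrected for length and GC it had 0.50 (adjusted p = 0.0107), also lost without DMSO 2 (0.0524). It shares 4164 exon bases with Gm45140 on the same strand, which had 35.3 counts on average against 335. Rab34, of the Golgi and of lysosome positioning, rose 1.47-fold (adjusted p = 0.0131), with means of 25.8 ± 4.56 CPM in DMSO and 38.1 ± 3.16 CPM in BPAP (SD, n = 3 each), and had 0.35 on the log2 scale with the trend removed (adjusted p = 0.0778). Rab18, of the endoplasmic reticulum and lipid droplets, stood at 80.7, 98.0 and 110 CPM in DMSO and 125, 121 and 128 CPM in BPAP, a rise of 1.29-fold (adjusted p = 0.0309). The BPAP libraries were close together and the DMSO libraries spread, with DMSO 1 lowest; the call was lost without DMSO 1, DMSO 2, BPAP 1 or BPAP 3 and with limma on FPKM. Rab18 has long exons (6850 bases), and its log2 fold change went from 0.37 to 0.65 with the trend removed (adjusted p = 0.00600), where it also passed without any 1 library.

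The Rabs that drive transport from the endoplasmic reticulum to the Golgi did not pass. Rab1a had a log2 fold change of 0.09 (SE 0.16) and Rab1b 0.28 (adjusted p = 0.0586). Rab1b passed with upper quartile scaling (0.0471) and with the replicate number as a block (0.0262), and corrected for length and GC it had 0.06 (adjusted p = 0.636). Rab2a stood at 108, 103 and 111 CPM in DMSO and 130, 119 and 131 CPM in BPAP; its groups did not overlap, but 0.24 did not pass (adjusted p = 0.0532). It passed without BPAP 2 (0.0229), with upper quartile scaling (0.0373) and with the replicate number as a block (0.0376), and corrected it had 0.08 (adjusted p = 0.459). Rab33b had 0.23, Rab19 0.50 at only 3.64 CPM in DMSO, Rab2b -0.02 and Rab6a, of traffic within the Golgi and back to the endoplasmic reticulum, -0.08. Rab6a shares exon bases with Mrpl48 and Rab2b with Tox4, both on the opposite strand.

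Of the 3 tested Rabs of regulated secretion 1 (33.3%) rose, beside 16.2% of all tested genes. Rab3d, found on secretory granules, rose 1.30-fold, from 14.5, 13.1 and 14.0 CPM to 17.4, 18.9 and 17.6 CPM (adjusted p = 0.0351). This call was lost in every fit without 1 library (adjusted p = 0.0625 to 0.126), without a filter on low counts, with DESeq2 or limma on FPKM, and with the length and GC correction (log2 fold change 0.29, adjusted p = 0.0837). Rab3a had 0.01. Rab27a, which docks granules and exosome-bearing endosomes, stood at 10.5, 10.1 and 11.6 CPM in DMSO and 10.9, 6.99 and 8.61 CPM in BPAP (log2 fold change -0.28, SE 0.18, adjusted p = 0.256). The groups overlapped through BPAP 1.

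Rab28 and Rab23, both known for roles at cilia, rose. Rab28 (chromosome 5, 41624976 to 41708157) stood at 27.6, 32.8 and 32.0 CPM in DMSO and 44.1, 48.1 and 52.0 CPM in BPAP, 1.56-fold higher (log2 fold change 0.64, SE 0.11, adjusted p = 0.00278). The lowest BPAP library was well above the highest DMSO library, and the corrected log2 fold change was 0.76 (adjusted p = 0.00308). Rab23, an inhibitor of Hedgehog signalling, was scarce, at 5.87, 5.24 and 4.16 CPM in DMSO and 7.57, 7.74 and 6.97 CPM in BPAP. It rose 1.47-fold (adjusted p = 0.0388), a call that held without DMSO 1 but without none of the other libraries, and was lost with DESeq2. Its corrected call (log2 fold change 0.70, adjusted p = 0.0202) held without DMSO 1, BPAP 2 or BPAP 3 only. Rab40c, which belongs to a ubiquitin ligase, had 0.34 (adjusted p = 0.137).

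Promoter windows of RefSeq (GRCm38.p6) were found for 48 of the 59 members. Shown are the 250 bases before the start of the 4 members with the smallest p among those that rose in both fits and have a single window, Rab20 at chr8:11478641-11478890, Rab28 at chr5:41708180-41708429, Rab11a at chr9:64737757-64738006, all on the minus strand, and Rab8a at chr8:72160950-72161199 on the plus strand. They are printed 5′ to 3′, and capitals mark matches, on either strand, to the motifs listed after them.
Rab20: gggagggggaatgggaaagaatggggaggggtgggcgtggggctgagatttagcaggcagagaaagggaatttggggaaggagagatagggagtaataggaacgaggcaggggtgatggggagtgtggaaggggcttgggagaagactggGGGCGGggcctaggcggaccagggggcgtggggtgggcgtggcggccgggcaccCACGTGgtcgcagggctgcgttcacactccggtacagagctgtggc
Rab28: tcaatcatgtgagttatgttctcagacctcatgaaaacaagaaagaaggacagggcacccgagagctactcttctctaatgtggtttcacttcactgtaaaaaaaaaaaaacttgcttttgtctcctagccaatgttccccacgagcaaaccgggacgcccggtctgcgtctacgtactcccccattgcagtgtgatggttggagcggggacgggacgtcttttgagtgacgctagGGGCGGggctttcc
Rab11a: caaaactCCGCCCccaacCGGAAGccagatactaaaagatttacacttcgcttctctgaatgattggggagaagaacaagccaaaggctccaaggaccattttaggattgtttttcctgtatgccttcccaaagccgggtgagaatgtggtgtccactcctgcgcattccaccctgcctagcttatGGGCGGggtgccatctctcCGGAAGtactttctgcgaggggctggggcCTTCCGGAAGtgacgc
Rab8a: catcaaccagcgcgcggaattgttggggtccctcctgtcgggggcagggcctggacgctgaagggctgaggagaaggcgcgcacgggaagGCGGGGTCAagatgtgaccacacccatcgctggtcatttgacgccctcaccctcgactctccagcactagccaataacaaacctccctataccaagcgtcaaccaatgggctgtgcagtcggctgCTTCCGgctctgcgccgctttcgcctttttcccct

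The same 250 bases of all promoters were searched on both strands for 7 motifs. They were GGGCGG (the GC box of Sp1 factors), CGGAAG (ETS factors), CACGTG (the E-box), the CLEAR element of the lysosomal regulator TFEB, which contains the E-box, TGACNNNGC (the core of the antioxidant response element), TGATGNAAT (the C/EBP-ATF response element) and TGACTCA (AP-1). Of the 12 genes that rose and have a window, 9 held the GC box, 3 the ETS motif, 2 the antioxidant core, 2 the E-box, 1 AP-1 and 0 the other motifs. Among the 8605 tested genes with a window the shares were 64.3% for the GC box, 30.7% for ETS, 14.1% for the antioxidant core, 10.3% for the E-box, 3.90% for AP-1, 0.674% for the CLEAR element and 0.418% for the C/EBP-ATF element. The E-boxes were those of Rab20, 46 bases before the start, and of Rab23. The CLEAR element was found before Rab5a and Rab21, which did not pass in the uncorrected fit. A match is a description of these letters and not a site of binding.

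Related Rab genes were also set against each other. Count ratios within a library are free of library scaling, and were compared for the 9 pairs of tested genes that share a number, with Rab5b and Rab5c each set against Rab5a. The ratio of Rab7b to Rab7 was 0.368, 0.390 and 0.350 in DMSO and 0.195, 0.295 and 0.171 in BPAP, a log2 difference of -0.78 (SE 0.24). The ratio of Rab8a to Rab8b was 0.378, 0.431 and 0.354 in DMSO and 0.496, 0.680 and 0.462 in BPAP, a log2 difference of 0.48 (SE 0.19). Rab5c gained on Rab5a by 0.37 (SE 0.15), Rab3d on Rab3a by 0.37 (SE 0.11) and Rab2a on Rab2b by 0.28 (SE 0.16), and in these 5 pairs the groups did not overlap. For single genes, 49% of all tested genes had no overlap between the groups. Rab7b, Rab8a, Rab5c and Rab3d had already been called on their own, so these ratios partly repeat those calls. The ratios are not corrected for exon length, which differs within pairs, as in Rab5c (2194 bases) and Rab5a (5270 bases) or Rab2a (2133) and Rab2b (4163). Corrected log2 fold changes were 0.12 for Rab5c beside 0.10 for Rab5a, 0.08 for Rab2a beside -0.05 for Rab2b, and 0.31 for Rab8a beside 0.06 for Rab8b. They were 0.29 for Rab3d beside -0.23 for Rab3a, and -0.66 for Rab7b beside 0.04 for Rab7. The 2-sided exact permutation p was 0.1 in each, the smallest that 3 against 3 can give, and 0.18 adjusted over the 9 pairs, so that none can pass 0.05 in this design. For Rab11a against Rab11b the ratio overlapped between the groups, with a log2 difference of -0.21 (SE 0.31), as it did for Rab5b with Rab5a, Rab1b with Rab1a and Rab4b with Rab4a.

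**Figure D3:**
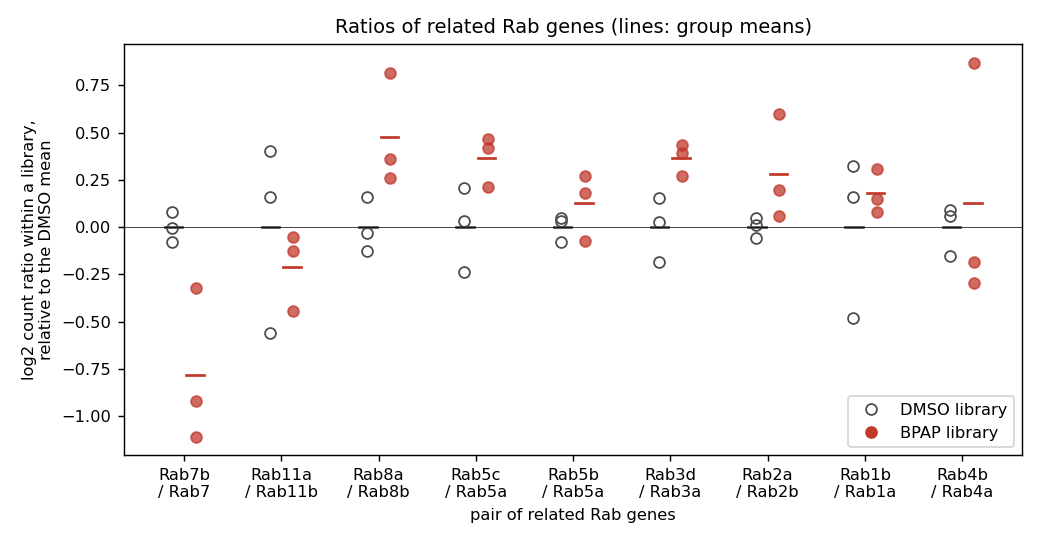
Each point is the log2 ratio of the counts of 2 related Rab genes in 1 library, relative to the mean of the 3 DMSO libraries, and short lines are group means. The BPAP points lie below all DMSO points for Rab7b over Rab7 and above them for Rab8a over Rab8b, Rab5c over Rab5a, Rab3d over Rab3a and Rab2a over Rab2b.

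The levels of the tested Rab genes, as CPM per kilobase of merged exon averaged over all libraries, spanned a 160-fold range. Rab5c led with 121, followed by Rab7 with 94.1, Rab31 with 87.3 and Rab2a with 54.8 CPM per kilobase, and these 4 genes made up 37.0% of the summed level of the tested members. Rab2a, Rab1b (54.5) and Rab1a (54.1) did not differ beyond the spread between libraries. Rab11a (45.8) and Rab10 (40.3) came next. Rab7b had 14.8, Rab20 9.69 and Rab28 8.71 CPM per kilobase, and Rab27a (2.52) and Rab23 (0.755) were the lowest. The summed CPM of all 59 members was 3163, 3036 and 3246 in DMSO and 3443, 3340 and 3527 in BPAP, with no overlap (2-sided exact permutation p = 0.1, the smallest possible). As shares of raw counts, the values were 0.311%, 0.309% and 0.334% in DMSO and 0.340%, 0.333% and 0.346% in BPAP. There the groups overlapped, with DMSO 3 above BPAP 2. Neither measure is corrected for exon length.

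**Figure D4:**
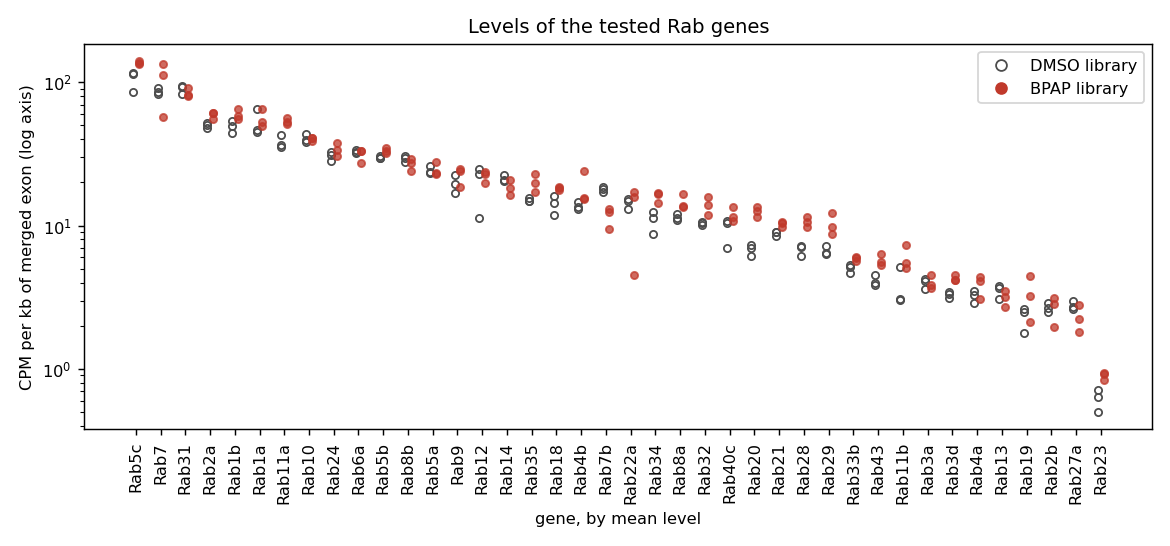
The 40 tested Rab genes in order of their mean level, as CPM per kilobase of merged exon on a log axis, with 1 point for each library. Rab5c, Rab7 and Rab31 are highest and Rab23 lowest, and the BPAP points of Rab7 and Rab22a are widely spread.

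The 19 members that were not tested had few or no counts. Rab3c, Rab6b, Rab9b, Rab27b, Rab36, Rab38, Rab39b and Rab44 had 0 counts throughout. In the smallest library a count of 0 leaves room for 0.271 CPM, counting error only. The other 11, Rab3b, Rab15, Rab17, Rab25, Rab26, Rab30, Rab33a, Rab37, Rab39, Rab40b and Rab42, had at most 13 counts in any library. Several of these are known for neurons, epithelia or melanocytes, such as Rab3c, Rab25 and Rab38.

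The machinery that loads Rabs onto membranes moved both ways, with 2 of 8 genes higher and 3 lower. Over all tested genes 16.2% were higher and 15.5% lower. Rabac1, whose product frees Rabs from their cytosolic carrier GDI, rose 2.00-fold, with 84.0 ± 22.0 CPM in DMSO and 168 ± 31.3 CPM in BPAP (SD, n = 3 each, adjusted p = 0.0130), a call lost without BPAP 2. It is short (1523 exon bases), and its log2 fold change went from 1.00 to 0.68 with the length and GC correction (adjusted p = 0.0398). Of the 6 corrected fits without 1 library, Rabac1 passed in 2. Rabif, a chaperone of nucleotide-free Rabs, rose 1.32-fold (adjusted p = 0.00903), a call lost with the length and GC correction (log2 fold change 0.25, adjusted p = 0.0589). Chm, an escort protein that presents new Rabs for lipid attachment, was 1.56-fold lower, at 21.2 ± 0.87 against 33.3 ± 4.11 CPM (adjusted p = 0.00366), but corrected for length and GC it had -0.19 (adjusted p = 0.256). With the correction 2 genes of the list were higher and 1 lower. The number lower was 1 without DMSO 1, and the number higher 1 without BPAP 2.

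Regulators and effectors of Rabs moved in both directions. Over all tested genes 16.2% were higher and 15.5% lower. The shares were 13.7% and 17.6% for exchange factor and TRAPP genes, and 14.3% and 8.57% for GTPase-activating genes. For effector genes they were 15.6% and 24.4%. Of 51 exchange factor and TRAPP genes, which switch Rabs on, 7 were higher and 9 lower (median log2 fold change -0.04), with Rab3il1, an activator of Rab8 proteins, 1.61-fold higher (adjusted p = 0.00247) and the TRAPP subunit genes Trappc2l 1.55-fold and Trappc3 1.53-fold higher. Corrected for length and GC, the log2 fold changes of Trappc2l and Trappc3 went from 0.63 to 0.35 and from 0.61 to 0.30. Both passed the threshold (adjusted p = 0.0168 and 0.0396). Of the 6 corrected fits without 1 library, Trappc2l passed in 3 and Trappc3 in 0. Uncorrected, the number of exchange factor and TRAPP genes lower was 5 without DMSO 2. Of 35 GTPase-activating genes, which switch Rabs off, 5 were higher and 3 lower (median -0.07). Grtp1 rose 2.48-fold, from 5.97 ± 0.93 CPM in DMSO to 14.9 ± 6.15 CPM in BPAP (SD, n = 3 each). Its BPAP 2 value was 22.0 CPM, and the other BPAP libraries had 12.1 and 10.7 CPM. Tbc1d20, which acts on Rab1, rose 1.31-fold. Usp6nl, which acts on Rab5, was 1.28-fold lower, a call lost with the correction (log2 fold change -0.21, adjusted p = 0.0665). Without DMSO 1 or DMSO 3, 2 of the activating genes were higher, and 1 was lower without DMSO 2, DMSO 3 or BPAP 1. Tbc1d20 lost its call without DMSO 1 or DMSO 3. Of 45 effector genes, 7 were higher and 11 lower (median -0.10). Rilpl2 rose 1.98-fold (adjusted p = 0.00393), while Myo5a, the motor that carries Rab-bound vesicles along actin, was 1.65-fold lower, at 184 ± 23.4 against 303 ± 4.72 CPM (adjusted p = 0.00119), and the golgin gene Golga4 was 1.35-fold lower. Corrected, Myo5a went from -0.72 to -0.40 on the log2 scale and still passed (adjusted p = 0.00757), and Golga4 went from -0.43 to -0.17 and did not (adjusted p = 0.0958). The number of effectors higher was 4 without DMSO 3 or BPAP 3. These lists hold longer genes than the Rab family, with median exon lengths of 6199, 6884 and 6080 bases, and the correction for length and GC changed their counts. It gave 10 exchange factor and TRAPP genes higher and 3 lower, 6 activating genes higher and 0 lower, and 6 effector genes higher and 5 lower. Over all genes the corrected fit called 11.8% higher and 10.9% lower. The corrected medians were 0.11, 0.10 and -0.04, beside 0.12 for the Rab genes. No difference between these lists and the Rab genes was tested.

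Tethering complexes that work with Rabs, and the retromer list, held few called genes in the uncorrected fit. Of all tested genes, 31.7% were called in that fit, 16.2% higher and 15.5% lower. In the HOPS and CORVET tethers, which bind Rab7 and Rab5, 9 of 10 did not pass and Vps18 rose 1.29-fold (adjusted p = 0.0211), a call lost without any 1 DMSO library. Corrected for length and GC, Vps18 had a log2 fold change of 0.36 (adjusted p = 0.0157). It passed in 5 of the 6 corrected fits without 1 library. In the retromer list 1 of 10 was lower, Snx27, 1.23-fold (adjusted p = 0.0408). Its call was lost with the length and GC correction (log2 fold change -0.18, adjusted p = 0.145) and without DMSO 2, DMSO 3, BPAP 1 or BPAP 2. In the exocyst, which tethers vesicles at the plasma membrane, Exoc8 rose 1.61-fold from 4.33 CPM and Exoc1 was 1.25-fold lower, and 7 of 9 did not pass. Exoc8 lost its call without DMSO 1, DMSO 2 or BPAP 1, and Exoc1 without any 1 library but BPAP 1. The fall of Exoc1 went from -0.32 to -0.025 on the log2 scale with the correction (adjusted p = 0.857). With the correction 1 of the tethers was higher and 3 lower, 2 of the retromer list and 2 of the exocyst were higher, and 0 of either were lower. The corrected fit called 11.8% of all genes higher and 10.9% lower. Exoc5, chosen after its values were seen, went from -0.21 to 0.58 with the correction (adjusted p = 0.00499), passing in all 6 corrected fits without 1 library; it has long exons (17988 bases). The list of Rab-like GTPases also included Ran. Of its 6 tested genes 0 passed in edgeR's test, as in DESeq2, and 0 had an unadjusted p under 0.05.

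**Figure D5:**
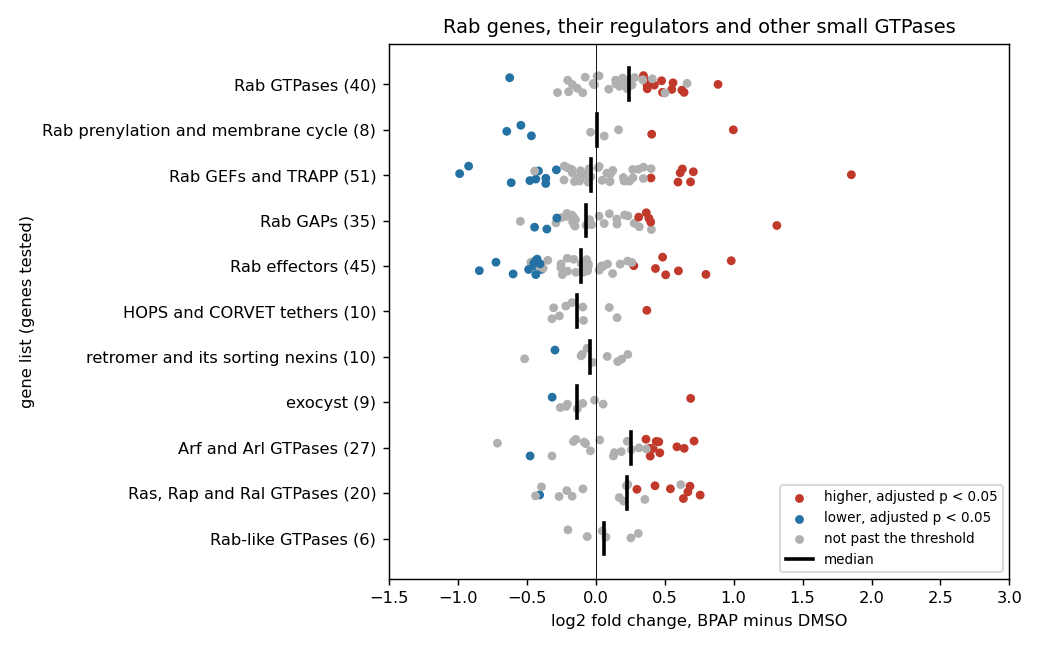
Log2 fold changes, BPAP minus DMSO, of the tested genes of each list (number in brackets); each point is a gene, coloured by whether it passed an adjusted p of 0.05, and black bars are medians. The medians of the Rab genes (0.24) and of the Arf and Arl genes (0.26) lie to the right of 0, and those of the exchange factor, activating and effector lists between -0.10 and -0.04, all from the fit without the length correction.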

How the data were processed

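The authors deposited 1 table with raw counts and FPKM values per gene for each of 6 libraries. Per the submitters' processing notes, HISAT2 2.0.4, StringTie 1.3.3b and edgeR were used with GRCm38; their roles are not stated there. How multiply mapping reads and strand were handled is not stated in the labels. Groups come from the treatment label and replicate numbers from the titles.

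Genes passing edgeR's default expression filter were scaled by TMM and compared with edgeR 4.0.16 (R 4.3.3, quasi-likelihood, robust, treatment as the only term). P-values are 2-sided and adjusted by Benjamini-Hochberg over all 11711 genes; the threshold was 0.05. CPM values are TMM-scaled, and SE follows from the fold change and F. Exon lengths and overlaps are from GENCODE M21, and GC content from its transcripts. The length and GC alternative entered lowess trends (span 0.3) as offsets. Other alternatives were DESeq2 size factors, upper quartile scaling, no filter, DESeq2 1.42.0, limma 3.58.1 (voom on counts, or log2(FPKM + 1) of the deposited FPKM, mean FPKM 1 or more), a replicate block and leaving out each library. Removing the length and GC trend while leaving out a library was added after seeing the data. The edgeR fit and the length correction were tested on simulated data.

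The members, lists and tests were chosen with earlier results of these data known. Named by rule were every member past the threshold, the 4 highest per kilobase, Rab5a, Rab7, Rab11a and Rab27a, the same-numbered partners of called members and, from each other list, up to 3 genes past the threshold with the smallest p. The other members were named after their values were seen. Some listed genes are not reported here. The pairs for count ratios and the motifs were chosen after values were seen.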

Additional observations from a re-analysis of the deposited data

How the results depend on the processing

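The 1 fall, Rab7b, was called under every alternative, and the median log2 fold change of the tested Rab genes stayed above 0. After correction for exon length and GC, 8 Rab genes were higher and the median was 0.12; with limma on FPKM the median was 0.19. Over the fits without 1 library, 5 to 10 Rab genes and 1244 to 1654 of all genes were higher, 1235 to 1660 of all genes were lower, and the Rab median was 0.22 to 0.27. With the correction and 1 library left out, these were 2 to 7, 710 to 1139, 642 to 1075 and 0.091 to 0.13. Fewer libraries entered these fits. With the correction, Rab5c turned to -0.018 without DMSO 2 and Exoc1 to 0.026 without BPAP 2, neither past the threshold; their log2 fold changes over all fits without 1 library ran from there to 0.44 and down to -0.38. The replicate numbers are not shown to pair the libraries (correlations of same-numbered deviations 0.10, 0.05 and 0.01, and not every library correlated best with its own number); with the replicate block 17 Rab genes were higher and 1 lower, and 2149 and 2087 of all genes. Of the 14 called Rab genes, 10 passed in all 7 other settings that kept all libraries and made no length correction. The number of libraries and the depth limit the precision for scarce genes: the SE of the log2 fold change was 0.28 for Rab19 and 0.19 for Rab4a, against 0.10 for Rab11a.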

Other observations

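The Arf and Arl genes and the Ras, Rap and Ral genes, further small GTPases listed for comparison, also held more rises than falls. Over all tested genes 16.2% were higher and 15.5% lower. Of 27 tested Arf and Arl genes 10 (37.0%) were higher and 1 (3.70%) lower, with a median log2 fold change of 0.26. Among them Sar1a and Sar1b, whose products start the COPII coat on the endoplasmic reticulum, rose by log2 fold changes of 0.64 and 0.59 (adjusted p = 0.00212 and 0.00227 in edgeR's test). Sar1a had 73.1 ± 3.91 CPM in DMSO and 114 ± 13.4 CPM in BPAP, and Sar1b 41.5 ± 2.34 and 62.4 ± 3.86 CPM (SD, n = 3 each). Arl11, a macrophage-expressed Arl gene, rose 1.64-fold. Corrected for exon length and GC, Sar1b had 0.33 on the log2 scale and Arl11 had 0.45 in place of 0.71, both still past the threshold. Of the 6 corrected fits without 1 library, Sar1b passed in 2 and Arl11 in 3. Of 20 Ras, Rap and Ral genes 7 were higher and 1 lower (median 0.23), with Rit1 1.69-fold, Rap2b 1.46-fold and Rap1b, an activator of integrins, 1.35-fold higher. Without DMSO 2, 4 of them were higher. In the fits without 1 library, 0 to 2 genes of each list were lower. Corrected for exon length and GC, 7 and 5 genes of these lists were higher and 0 and 2 lower. That fit called 11.8% of all genes higher and 10.9% lower. No difference between these families and the Rab genes was tested.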
